A study of Chlorocebus sabaeus with 12 samples.

Results

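Retinol binding protein 4 (RBP4) and 5 other proteins that carry, take up, bind or store retinoids were followed over 12 one-colour arrays of COS-1 cells. The set holds 6 of the 30982 gene names on the array (RBP4, TTR, STRA6, CRABP1, CRABP2 and LRAT) and every probe filed under them, 9 of 41000 probes. RBP4 was selected on its measured rise with CDCA in cells with the S154A form of FXR, and the other 5 by their role beside it. The values of RBP4 are therefore given as a description, without a test. Exceptions are its response in cells with the S154D form and its difference between slides.

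COS-1 is a kidney cell line of the African green monkey. All cells carried a transfected mutant of human FXR, the nuclear receptor for bile acids encoded by NR1H4, for 24 h. In S154D the serine was replaced by aspartate and in S154A by alanine. They were then kept for 24 h with chenodeoxycholic acid (CDCA, a bile acid that activates FXR, given in the labels as 50 mM) or with 0.1% DMSO. The groups were S154D with CDCA, S154D with DMSO, S154A with CDCA and S154A with DMSO, with 3 arrays in each. Cells with unmutated FXR and untransfected cells are not analysed here, and nothing in the labels says that the 3 arrays of a group came from separate cultures, so errors and p-values measure only the spread between these arrays.

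Retinol, the alcohol form of vitamin A, leaves the liver on RBP4, which circulates bound to transthyretin (TTR). STRA6 is a membrane receptor that takes retinol from RBP4 into cells. Inside cells LRAT turns retinol into retinyl esters for storage, while CRABP1 and CRABP2 bind retinoic acid, the form that acts through nuclear receptors.

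The array carries 60-base human probes, placed on the human build hg17, while the RNA came from a monkey, so a probe's signal varies with its likeness to the monkey sequence, and levels of different probes are not compared. All 6 gene symbols are also gene symbols in the RefSeq annotation of the green monkey (assembly mChlSab1.0.hap1). The RBP4 and TTR probes are shown because they read the partners of the blood complex, and the pair filed under CRABP1 because its members run on opposite strands. Each line gives 30 bases of a probe, 5′ to 3′, from its first base or, for TTR, from base 30, and the capitals mark AATAAA, the usual polyadenylation signal.
RBP4 (A_23_P75283): tcagttcccataaaaccttcattacacata
TTR (A_23_P130333): ccaggcagagacAATAAAacattcctgtga
CRABP1 (A_23_P117882): accgcccttttcccctaccaatattaggtg
AK096006, filed under CRABP1 (A_24_P324871): gagtacaaacacttcactattacccttgta
The RBP4 probe lies at chr10:95341659-95341718 on the minus strand and the TTR probe at chr18:27432718-27432777 on the plus strand. The CRABP1 probe lies at chr15:76427455-76427514 on the plus strand, and the probe for the transcript AK096006 lies at chr15:76418842-76418901 on the minus strand. Searched on the probe strand, AATAAA occurs in 1 of the 9 probes and in 4.16% of all 41000 probes. The exon or UTR in which each probe lies was not looked up, since the files give positions only.

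Agilent's software marks each spot that is well above background. The probes of RBP4, STRA6, CRABP1 and CRABP2 were marked on all 12 arrays, and 4 of the 9 probes passed the filter for testing, which asks for the mark on all 3 arrays of at least 1 group. The other 5 probes (TTR, LRAT with 3 probes, and AK096006) did not pass it. No spot of any of the 9 probes was saturated. Levels are log2 intensities relative to the 75th percentile of the array, so 0 is the level of that percentile on the array.

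**Figure D1:**
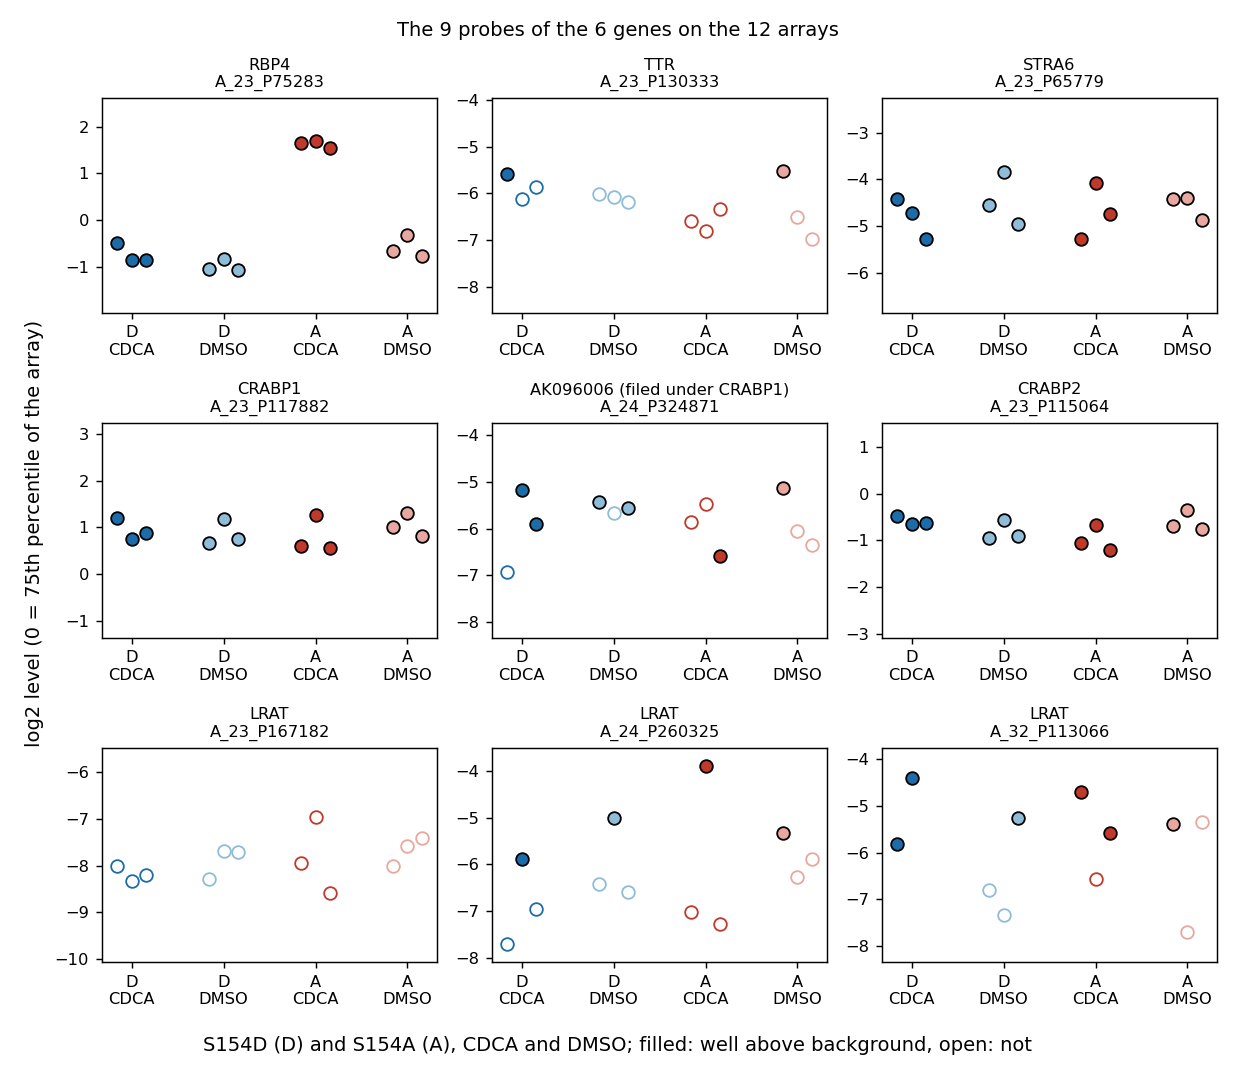
Log2 level of each of the 9 probes on the 12 arrays (vertical axes, 0 is the 75th percentile of the array, ranges differ between panels), by group (D is S154D, A is S154A). Points are single arrays, filled where the spot was well above background and open where it was not; only the RBP4 panel has a group, S154A with CDCA, that stands far from the other groups.

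Across the array as a whole, the 75th percentile of intensity ran between 1234 and 2107 over the 12 arrays, and 61.6% to 79.8% of spots were well above background. NR1H4 was well above background on 12 of 12 arrays and averaged 7.56 ± 0.13 with S154D and CDCA, 7.77 ± 0.27 with S154D and DMSO, 7.59 ± 0.13 with S154A and CDCA and 7.74 ± 0.16 with S154A and DMSO (SD, n = 3 each). Of the fixed markers, 6 of 6 epithelial and 5 of 8 fibroblast-like genes were well above background on all 12 arrays, as were 4 of 7 hepatocyte and 4 of 5 leukocyte genes, while COL1A2, APOB and PTPRC were not on any array. The 12 arrays sat on 4 slides, and 1 slide holds all 4 groups. Replicates 1 and 3 of S154D with CDCA lay on slide 2, which holds no array of S154D with DMSO. Slide and treatment can therefore not be fully told apart for CDCA against DMSO with S154D. All 3 arrays of S154A with DMSO lay at slide position 1, which holds no other group, so that position and that group cannot be told apart.

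RBP4, the blood carrier of retinol, was far higher in cells with S154A given CDCA than in the other groups. Its levels were 1.64, 1.70 and 1.54 with S154A and CDCA, against −0.66, −0.33 and −0.76 with S154A and DMSO. The lowest array with CDCA lay above every array with DMSO, as did 3.51% of the probes compared, and the 3 CDCA arrays lay closest together of the 4 groups. The means were 1.63 ± 0.08 with CDCA and −0.58 ± 0.23 with DMSO (SD, n = 3 each), a log2 change of 2.21 ± 0.15 (SE), or 4.63-fold. From the highest log2 change down, RBP4 stood at rank 35 of 26898 probes. Within the slides that hold both groups the change was 2.20 on slide 1 and 2.41 on slide 3, so it was as large within a slide as over all arrays. Each of these values is 1 array against 1 array. The arrays also differed in slide position, so position and treatment cannot be told apart in this comparison. Each array measured RNA of a whole culture, so that more RNA in each cell and more responding cells cannot be told apart.

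In cells with S154D the RBP4 levels of both treatments overlapped. They were −0.48, −0.86 and −0.85 with CDCA, against −1.05, −0.84 and −1.07 with DMSO. The change was 0.26 ± 0.15 on the log2 scale (SE, 95% interval −0.07 to 0.58), and it did not pass limma's test (adjusted p = 0.263). In that comparison 11.6% of the 26898 probes passed the test, a count of 3129. That count was 0 with slide as a block, with the correction for probe GC, with only the groups compared, with no filter on dim probes, without replicate 3 of S154D with CDCA, or without replicate 1 or 3 of S154D with DMSO, and it was 1 with no scaling and 11 without slide 2. The adjusted p of RBP4 lay between 0.185 and 0.726 over the alternatives tried.

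Between the mutants, RBP4 was 5.13-fold lower with S154D than with S154A when both had CDCA, a log2 difference of −2.36 ± 0.15 (SE, n = 3 each), with no overlap, as had 8.26% of probes in that direction. With DMSO the 3 arrays of S154D, at −1.07 to −0.84, all lay below those of S154A, at −0.76 to −0.33, and the difference was −0.40 ± 0.15 (SE). Of the probes compared, 6.32% had all S154D arrays below all S154A arrays in DMSO without overlap, and none of 26898 probes passed limma's test there (0%), against 1183 at an unadjusted p under 0.05. Slide position goes with the group here, since all 3 S154A arrays with DMSO lay at position 1. The same holds for CDCA against DMSO with S154A, and these arrays enter the difference of the responses too. The CDCA response with S154D minus that with S154A was −1.95 ± 0.21 (SE). In order of level, S154A with CDCA came highest, and S154A with DMSO and S154D with CDCA overlapped, as did S154D with CDCA and S154D with DMSO.

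**Figure D2:**
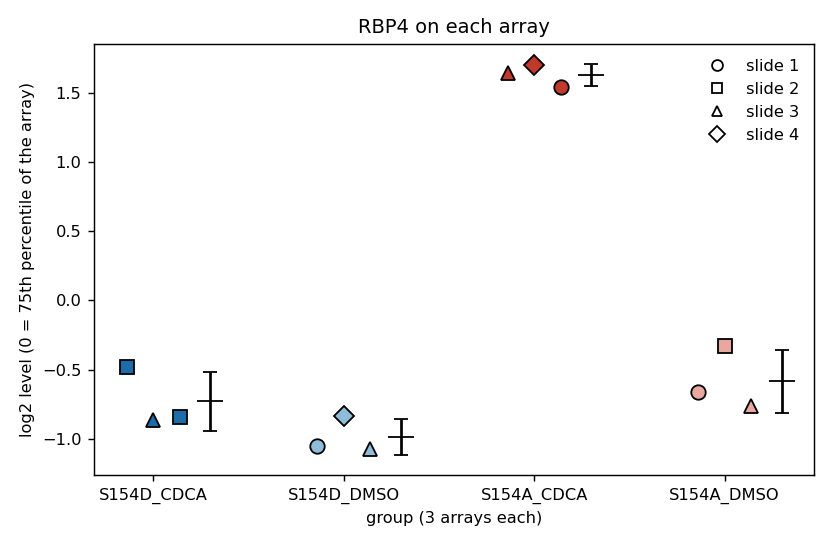
Log2 level of RBP4 (vertical axis, 0 is the 75th percentile of the array) in each of the 4 groups, with a symbol for each slide and bars for mean and SD (n = 3). The S154A arrays with CDCA sit at 1.54 to 1.70, and the other 9 arrays sit between −1.07 and −0.33.

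TTR, which holds RBP4 in blood and also carries thyroid hormone, gave almost no signal. Its probe was well above background on 2 of 12 arrays, 1 of S154D with CDCA and 1 of S154A with DMSO. Its values ran from −6.98 to −5.53, and all 3 arrays of S154A with CDCA, the group with high RBP4, were not well above background. No fold change is given for it, since no group measured it on all 3 arrays.

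STRA6, the retinol receptor, was measured on every array but low, with intensities between 34.0 and 110. Its levels were −4.43, −4.72 and −5.27 with S154D and CDCA, against −4.55, −3.84 and −4.95 with S154D and DMSO. They were −5.27, −4.08 and −4.74 with S154A and CDCA, against −4.42, −4.41 and −4.88 with S154A and DMSO. The groups overlapped throughout, and the highest values were those of the 2 arrays on slide 4. The CDCA change was −0.36 ± 0.35 with S154D (SE, 95% interval −1.15 to 0.42; limma adjusted p = 0.523) and −0.12 ± 0.35 with S154A (95% interval −0.91 to 0.66; adjusted p = 0.983). With slide as a block the change with S154D was 0.04, so its sign turned. In the comparison with S154A, 0.123% of the 26898 probes passed the test.

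CRABP1, which binds retinoic acid in the cytosol, had levels of 1.20, 0.75 and 0.88 with S154D and CDCA, against 0.66, 1.17 and 0.74 with S154D and DMSO. With S154A it had 0.61, 1.26 and 0.56 with CDCA, against 1.00, 1.31 and 0.81 with DMSO. All groups covered much the same range. The CDCA change was 0.09 ± 0.22 with S154D (SE, 95% interval −0.41 to 0.58; limma adjusted p = 0.832) and −0.23 ± 0.22 with S154A (95% interval −0.73 to 0.27; adjusted p = 0.964). The probe for AK096006, filed under the same gene name, was well above background on 6 of 12 arrays, 2 of S154D with CDCA, 2 of S154D with DMSO, 1 of S154A with CDCA and 1 of S154A with DMSO. It runs on the other strand, so it does not read the same strand as the CRABP1 probe.

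CRABP2, which hands retinoic acid to its nuclear receptor, was the only one of the 3 other measured genes with a pair of groups that did not overlap in the comparisons made. Its levels were −0.48, −0.64 and −0.62 with S154D and CDCA, against −0.95, −0.57 and −0.91 with S154D and DMSO. With S154A they were −1.06, −0.67 and −1.21 with CDCA, against −0.70, −0.35 and −0.76 with DMSO. With CDCA the S154D arrays all lay just above the S154A arrays, and the treatments overlapped within each mutant. The difference between mutants in CDCA was 0.40 ± 0.17 (SE, 95% interval 0.02 to 0.78), which did not pass limma's test (adjusted p = 0.196), and 19.7% of the probes compared had all S154D arrays above all S154A arrays there without overlap, while 0.357% passed the test.

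The CDCA change of CRABP2 was 0.23 ± 0.17 with S154D (SE; limma adjusted p = 0.402) and −0.38 ± 0.17 with S154A (adjusted p = 0.882). Within slides the change with S154A was −0.52 on slide 1 and −0.30 on slide 3, each from 1 array against 1 array. The response with S154D minus that with S154A was 0.60 ± 0.24 (95% interval 0.07 to 1.14; adjusted p = 0.179), where 0.219% of probes passed the test. No difference of CRABP2 passed the test in any comparison.

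LRAT, the enzyme that stores retinol as esters, was at the edge of detection with all 3 probes. The probe at chr4:156029186-156029245 was well above background on 0 of 12 arrays. The probe at chr4:156027824-156027883 was so on 4 of 12, 1 in each group. The probe at chr4:156031390-156031449 was so on 6 of 12, and its spot on the S154D with CDCA array of replicate 3 was left out as an outlier. The probes did not mark the same arrays, and no group was measured on all 3 arrays by any of them, so no difference between groups is given.

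**Figure D3:**
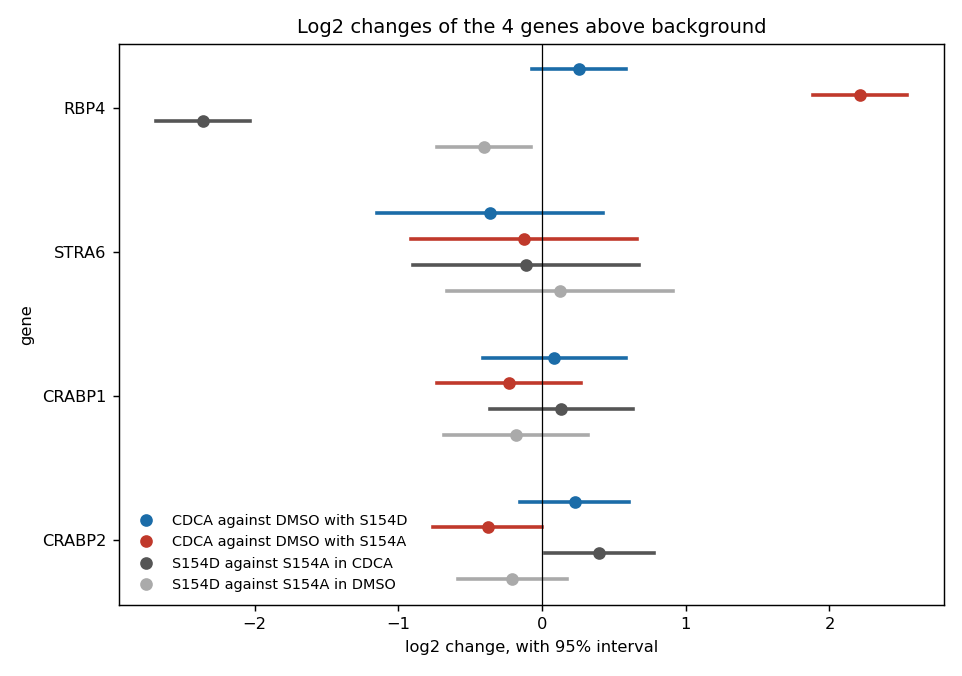
Log2 changes (points) with 95% intervals (lines) for the 4 genes above background, in 4 comparisons named in the legend. RBP4 has the values of greatest size, 2.21 for CDCA with S154A and −2.36 between the mutants in CDCA. It was selected on the S154A arrays, so its intervals are no test, save that for CDCA with S154D. The intervals of STRA6 and CRABP1 all cross 0.

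Levels of STRA6, CRABP1 and CRABP2 were also set side by side by slide. Mean CRABP1 levels were 0.74, 1.13, 0.73 and 1.21 on slides 1 to 4. Mean CRABP2 levels were −0.96, −0.48, −0.84 and −0.62 in the same order. Mean STRA6 levels were −4.57, −4.70, −4.95 and −3.96. With slide fitted beside group, a test added after seeing the data, limma's unadjusted p for slide was 0.00836 for CRABP1, 0.0208 for CRABP2 and 0.0214 for STRA6, and the adjusted p were 0.301, 0.363 and 0.364. No probe of 26898 passed this test (0%), although 3122 had an unadjusted p under 0.05. For RBP4 the adjusted p for slide was 0.548.

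**Figure D4:**
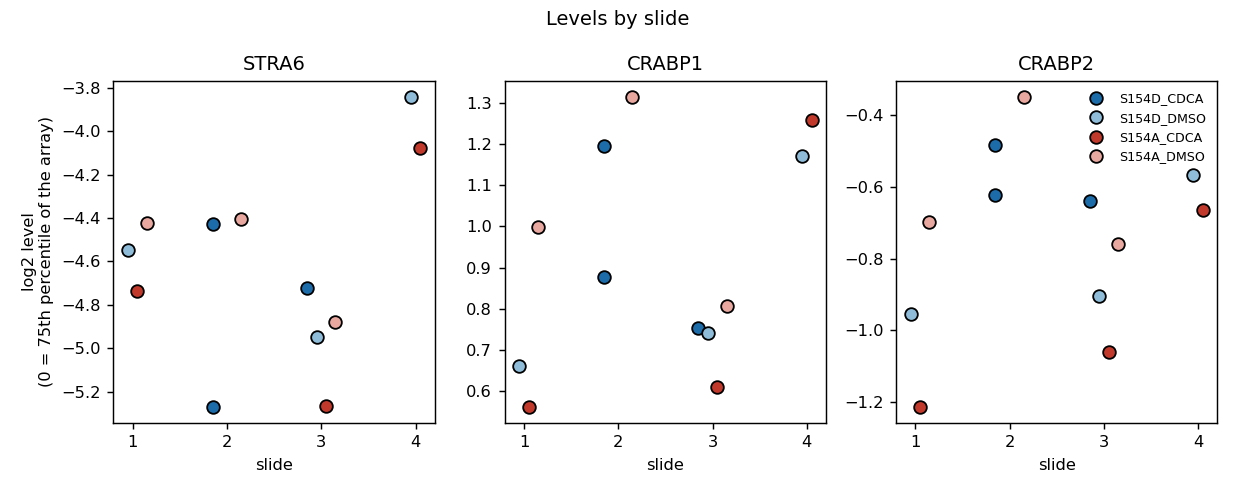
Log2 levels of STRA6, CRABP1 and CRABP2 (vertical axes, 0 is the 75th percentile of the array, ranges differ) by slide (horizontal axis), coloured by group. Both arrays on slide 4 are the highest for STRA6 (−4.08 and −3.84), and CRABP1 is higher on slides 2 and 4 than on slide 3.

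The rest of the retinoid pathway was counted over 6 lists with 74 genes on the array, of which 62 were measured, by the brightest probe of each gene. With S154A, 0 of the 62 passed limma's test for CDCA against DMSO, where 0.133% of all 20355 genes passed, and the median log2 change was −0.06 against −0.04 over all genes. With S154D, 8 of the 62 passed, 5 higher and 3 lower, where 10.7% of all genes passed, so the share was near that of all genes. The median was −0.02 for the lists and −0.01 for all genes. None of the 62 passed between the mutants in DMSO or in the difference of the responses, where 0% and 0.187% of all genes passed.

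Of the oxidoreductases that interconvert retinol and retinal, 2 of 13 measured rose with CDCA in cells with S154D. In that comparison 10.7% of all genes passed, the share beside which this count and those of the lists below are to be read. RDH11 had 0.53, 0.86 and 0.83 with CDCA, against 0.13, 0.07 and −0.05 with DMSO. It changed by 0.69 ± 0.14 (SE; limma adjusted p = 0.0278), and RDH14 changed by 0.60 ± 0.13 (adjusted p = 0.0285). With S154A, RDH11 had −0.21 ± 0.14 and RDH14 0.12 ± 0.13, neither of which passed. DHRS3, a retinal reductase that retinoic acid is known to induce, had −1.71, −1.49 and −1.58 with S154D and CDCA, against −0.75, −0.95 and −0.65 with S154A and CDCA. Its groups did not overlap, which was also so for 8.26% of the probes compared in that direction. At −0.81 ± 0.13 (adjusted p = 0.035) it was the 1 gene of the 62 that passed between the mutants in CDCA, where 0.359% of all genes passed.

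Of the genes for retinyl ester storage and hydrolysis and for carotenoid cleavage, 1 of 12 rose and 1 fell with CDCA in S154D cells, where 10.7% of all genes passed. LIPC, the hepatic lipase, changed by 1.06 ± 0.21 (SE; limma adjusted p = 0.0263), and BCMO1, the enzyme that cleaves beta-carotene to retinal, by −0.76 ± 0.17 (adjusted p = 0.0301). With S154A, LIPC had −0.53 ± 0.21 and BCMO1 −0.08 ± 0.17, neither of which passed. CES1, a carboxylesterase, had −0.85 ± 0.39 with S154D and −0.77 ± 0.39 with S154A and passed with neither. Of 5 further retinoid binding proteins, RBP5 fell with S154D (−0.42 ± 0.11, adjusted p = 0.0403). With S154A it had −0.25 ± 0.11, in the same direction, which did not pass. The difference of its responses, −0.18 ± 0.16, did not pass either.

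Of 8 retinoic acid receptors and partners, RXRB, a partner that FXR and the retinoic acid receptors share, fell with CDCA in S154D cells (−0.78 ± 0.21, SE; limma adjusted p = 0.0435). With S154A, RXRB had −0.02 ± 0.21. RARA, a retinoic acid receptor, had −0.46 ± 0.29 with S154D and 1.08 ± 0.29 with S154A, and the adjusted p of the second was 0.581. These values are those of the brightest of its 2 measured probes, and the other was not set beside it. Of 17 genes that retinoic acid induces in many cells, MEIS2 (0.65 ± 0.11, adjusted p = 0.0258) and RAI1 (0.63 ± 0.15, adjusted p = 0.0332) rose with CDCA in S154D cells by their brightest probe. Another probe of MEIS2 had 0.09 ± 0.48, an error too wide to tell it from the brightest probe. The 2 other probes of RAI1 had −0.09 and −0.75, the last of which fell (adjusted p = 0.0366), so the probes of RAI1 disagree. With S154A the brightest probes had −0.15 ± 0.11 for MEIS2 and −0.03 ± 0.15 for RAI1. Of 7 genes for the synthesis and breakdown of retinoic acid, none passed in any comparison. CYP26B1, which degrades it, had 0.37 ± 0.56 with S154D and 1.04 ± 0.56 with S154A (adjusted p = 0.925). Its levels with S154A and DMSO were −4.71, −5.24 and −7.57. Only 2 arrays of that group, and 2 of S154A with CDCA, were well above background, so the size of 1.04 depends on dim values. All 8 calls with S154D were lost with slide as a block, with the correction for probe GC, with only the groups compared, with no filter on dim probes, with no scaling and without slide 2. They were likewise all lost without the array of replicate 3 of S154D with CDCA or of replicate 1 or 3 of S154D with DMSO. Without replicate 2 of S154D with CDCA 3 of the 8 were left. The call of DHRS3 was lost in 19 of 25 alternatives, while its sign stayed.

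RBP4 is one of the plasma proteins that hepatocytes secrete, and 25 others were on the array, of which 16 were measured. With S154A, 2 of the 16 were called higher with CDCA, where 0.133% of all genes passed the test. That count is no test, since the list was not chosen blind to these arrays and includes HRG, described below. The median change was −0.19 for the list and −0.04 for all genes. FETUB, the plasma protein fetuin B, had −3.04, −3.32 and −3.00 with CDCA, against −4.62, −4.84 and −5.01 with DMSO. It changed by 1.71 ± 0.17 (SE; limma adjusted p = 0.00437), a p that is no independent evidence, as the list was not chosen blind. HRG, histidine-rich glycoprotein, had −2.53, −3.18 and −3.12 with CDCA, against −5.83, −5.94 and −6.75 with DMSO, a difference of 3.24 ± 0.34, given without a test. HRG was kept for testing only through the S154A arrays with CDCA, since 1 of 3 arrays of S154A with DMSO was well above background, so that its call supports nothing further and its size depends on dim values. With S154D none of the 16 passed, where 10.7% of all genes passed, and FETUB had −0.10 ± 0.17. HRG was well above background on 0 of 3 arrays of S154D with CDCA and 1 of 3 with DMSO, so no change is given for it there. The call of FETUB with S154A was lost without slide 2 (1.70), with slide as a block (1.69) and with no scaling (1.61). HRG had 3.35 without slide 2. With normexp background correction FETUB stayed called at a smaller size, 0.94, and HRG was also smaller, at 1.66. The list was chosen with results of these arrays known, so its counts and the calls of FETUB are no independent evidence of its direction.

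Among 14033 other gene symbols, each by its brightest measured probe, the 8 whose level was most like that of RBP4 over the 12 arrays had Pearson r between 0.958 and 0.988. These r are descriptions that rest on 3 arrays, those of S154A with CDCA. OSTalpha, a subunit of the basolateral bile acid exporter, came first (r 0.988, Spearman rho 0.76) and had r 0.67 over the other 9 arrays. FABP6, the bile acid binding protein of the ileum, followed (r 0.981, rho 0.92, and 0.63 over the other 9). SLCO2A1, a prostaglandin transporter, had r 0.979, and BAIAP2L2 had r 0.978. MYOM2, a muscle M-band protein, had r 0.969, RGS16, a regulator of G-protein signalling, 0.968, FETUB 0.962 and HRG 0.958. HRG had r 0.19 over the other 9 arrays.

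The sizes of the CDCA changes in these genes differed widely, although the genes were picked for a pattern like that of RBP4. FABP6 had 7.08 with S154A on the log2 scale, a size that depends on dim levels with DMSO (−3.48, −4.89 and −5.31). No change is given for FABP6 with S154D, where 2 of 3 CDCA arrays and 1 of 3 DMSO arrays were well above background. SLCO2A1 had 0.04 with S154D and 0.44 with S154A. OSTalpha had 0.19 with S154D and 2.55 with S154A, the nearest of the 8 to RBP4. The 3 other measured retinoid carriers were not like it: r with RBP4 was −0.03 for STRA6, −0.09 for CRABP1 and −0.44 for CRABP2.

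**Figure D5:**
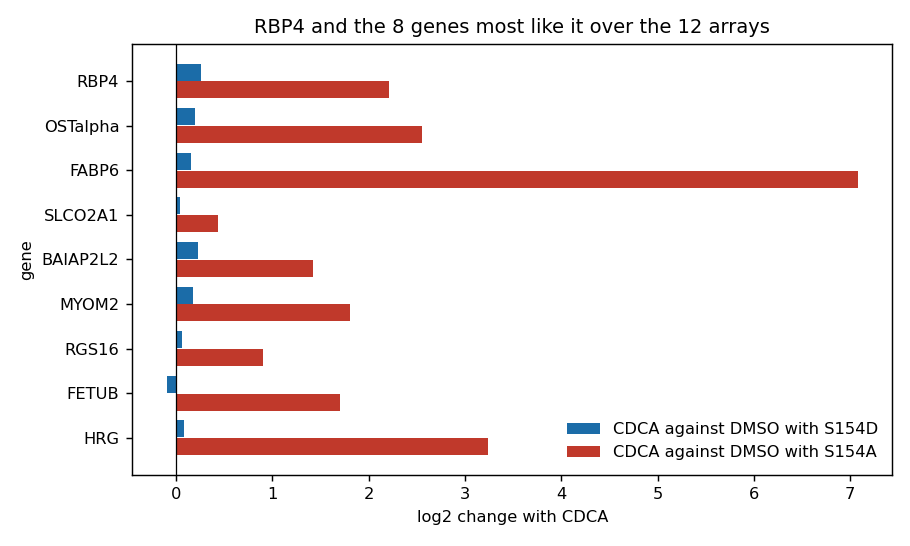
Log2 change with CDCA against DMSO (horizontal axis) for RBP4 and the 8 genes most like it, with S154D (upper bar) and S154A (lower bar). Every S154A bar is positive, between 0.44 and 7.08, and the S154D bars lie between −0.10 and 0.26. The 8 genes were picked for levels like those of RBP4 on these arrays, so the shared pattern follows from the choice. With S154D, the bars of FABP6 (in part) and HRG (mostly) rest on arrays that were not well above background, and they are not read as changes.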

How the data were processed

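Total RNA of COS-1 cells was measured on 12 Agilent whole human genome arrays. The deposited scanner files hold, per spot, the processed signal, a background-corrected intensity on a linear scale that the authors' Feature Extraction software (version 9.5.3.1 per the file headers, 12 per the submitters' processing notes) made, and deposited flags for spots that are well above background, saturated or outliers, which were used as other values. Probe positions are on hg17 per the file headers. The deposited series table held the same processed signal at all 45015 features of each array (relative tolerance 1e-05), with column medians between 104.6 and 214.3.

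Control spots and outlier spots were left out, log2 of the processed signal was taken relative to the 75th percentile of the array, and spots of a probe were averaged. A probe was kept if some group had it marked on each of its 3 arrays (26898 of 41000). limma 3.58.1 in R 4.3.3 fitted 1 mean per group over all 12 arrays with empirical Bayes moderation, for 5 comparisons, with Benjamini-Hochberg adjustment over all probes kept and a threshold of 0.05. Slides were read from the array names. The number of arrays limits the precision.

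The genes and lists were chosen with earlier results of these data known. The text names all 6 genes with every probe, every listed gene that passed in a comparison, otherwise up to 4 of a list with the largest changes, the 8 gene symbols whose levels correlate best with RBP4, and NR1H4. Alternatives were normexp background correction, quantile and median scaling, no scaling, other filters on dim probes, the brightest probe per gene, a slide or replicate block, a correction for probe GC, fits of only the groups compared, and leaving out arrays or slides.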

Additional observations from a re-analysis of the deposited data

Results flagged for a closer look

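RBP4 is noted because its response to CDCA differed between the mutants: the response with S154D minus that with S154A was −1.95 ± 0.21 on the log2 scale (SE, 3 arrays per group). It was 0.26 with S154D and 2.21 with S154A. The gene was chosen for its response with S154A, so the difference is given with no test.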

How the results depend on the processing

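RBP4 kept its direction in every comparison under each of up to 27 alternatives. Its CDCA change ran from 0.11 to 0.44 with S154D and from 2.11 to 2.41 with S154A, the highest within slide 3. The difference between mutants ran from −2.51 to −2.29 in CDCA and from −0.65 to −0.27 in DMSO, the lowest with no scaling, where the median of all probes was −0.24. The difference of the responses was −1.67 with no scaling (median of all probes 0.30), −2.14 with slide as a block, −2.22 without slide 2 and −2.20 within slide 3, and leaving out 1 array gave −2.08 to −1.86. No difference of STRA6, CRABP1 or CRABP2 passed under any alternative with a test, nor did RBP4 with S154D, while STRA6 turned sign under some alternative in each of its 5 comparisons and CRABP1 in 3 of its 5. Within slide 3, which holds 1 array of each group, STRA6 moved furthest (0.23 for CDCA with S154D, 0.54 between the mutants in CDCA and 0.61 for the difference of responses). Whether replicate numbers pair the arrays was not settled: 9 of 18 same-numbered pairs correlated above 0.1 (−0.38 to 0.53), and some same-numbered arrays share a slide. With a replicate block RBP4 had 2.21 with S154A and, with S154D, 0.26 (adjusted p = 0.245), and of the 8 pathway genes called with S154D 2 were left. The count of all probes called moved far more, from 0 to 3838 for CDCA with S154D (3129 as reported), 9 to 37 with S154A (33), 4 to 463 between mutants in CDCA (96) and 0 to 170 for the difference (59), and was at most 1 between mutants in DMSO. Dim signal limits TTR and LRAT, for which no change can be read.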
